A study of Mus musculus with 14 samples.

Results

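The clock output genes are 8 genes whose transcription the circadian clock is known to drive: Dbp, Tef, Hlf, Nfil3, Ciart, Bhlhe40, Bhlhe41 and Usp2. They were chosen by name, and all 8 of 8 were found among the 21898 genes of the deposited count table. Their RNA was measured by RNA sequencing of colon from wild-type (wt) mice after gavage, the delivery of a liquid into the stomach. The gavage was with PBS (phosphate-buffered saline) in 7 samples and with Bacteroides thetaiotaomicron in 7 samples. This bacterium is a common anaerobe of the gut that breaks down polysaccharides. The labels of all 14 samples read tissue Colon, treatment Drug stimulation and batch 3, and they give no strain, age, sex, dose or time of day of sampling. A sample is called here by its library number, from 1 to 7 in each group.

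The circadian clock is a loop in which CLOCK and BMAL1 (encoded by Arntl) activate genes through E-box sequences, and the products of the Per and Cry genes repress that activation in turn. Dbp, Tef and Hlf encode the PAR bZIP activators (basic leucine zipper proteins with a proline- and acid-rich region), which carry the rhythm on to other genes through D-box sequences. Nfil3 encodes a bZIP repressor that binds the same D-box, and its own gene is repressed by REV-ERB proteins, the products of Nr1d1 and Nr1d2. In mouse gut epithelium Nfil3 is known to respond to the microbiota and to control lipid uptake. Ciart encodes CHRONO, a repressor of CLOCK and BMAL1, and Bhlhe40 and Bhlhe41 encode DEC1 and DEC2, which bind E-boxes and repress from them. Usp2 encodes a deubiquitinase, an enzyme that removes ubiquitin from proteins, so it is a clock output but not a transcription factor.

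The windows around the annotated transcription start sites are shown because the genes are grouped by the E-box and D-box that the clock acts through. The RefSeq promoter table (GRCm38.p6) held windows of 300 bases, with 250 before the start and 50 after it, for 7 of the 8 genes, with separate starts for Tef. They were searched on both strands for the E-box CACGTG, for the D-boxes TTATGTAA and TTACGTAA, and for TAGGTCA, the core of the element bound by ROR and REV-ERB proteins. No matches overlapped. The E-box was present in the windows of 3 genes, Tef, Ciart and Bhlhe41, and in 7.15% of all 32851 windows of this length. The D-box letters were in none of the members' windows, and TTATGTAA and TTACGTAA were in 0.938% and 0.119% of all windows. The TAGGTCA letters were in the Nfil3 window and in 2.61% of all windows.

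Ciart held 3 E-boxes, which lay 116, 58 and 44 bases before the start, and 29 of all windows (0.0883%) held 3 or more. Its window lies on the minus strand at chr3:95882179-95882478, and that of Nfil3, also on the minus strand, lies at chr13:52980990-52981289. The windows of Dbp (plus strand, chr7:45704997-45705296) and Hlf (minus strand, chr11:90390868-90391167) are shown because these 2 genes separated the groups, and neither holds any of the 4 motifs. For Tef (plus strand) and Bhlhe41 (minus strand), 60 bases around the E-box are shown, at chr15:81802519-81802578 and chr15:81811249-81811308 for the Tef starts and at chr6:145865541-145865600 for Bhlhe41. Capitals mark the E-box in Ciart, Tef and Bhlhe41, and in Nfil3 the reverse complement of TAGGTCA, 12 bases before the start. A match of letters is a description of the window and does not show that a factor binds there. Bases outside the windows were not searched, so a window without a motif does not show that the gene lacks it.
Ciart: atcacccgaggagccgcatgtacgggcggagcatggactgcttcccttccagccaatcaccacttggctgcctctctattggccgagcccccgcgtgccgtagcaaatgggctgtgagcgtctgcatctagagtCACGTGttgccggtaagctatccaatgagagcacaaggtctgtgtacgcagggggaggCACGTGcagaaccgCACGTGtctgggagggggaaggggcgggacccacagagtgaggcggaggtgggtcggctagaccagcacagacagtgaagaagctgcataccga
Nfil3: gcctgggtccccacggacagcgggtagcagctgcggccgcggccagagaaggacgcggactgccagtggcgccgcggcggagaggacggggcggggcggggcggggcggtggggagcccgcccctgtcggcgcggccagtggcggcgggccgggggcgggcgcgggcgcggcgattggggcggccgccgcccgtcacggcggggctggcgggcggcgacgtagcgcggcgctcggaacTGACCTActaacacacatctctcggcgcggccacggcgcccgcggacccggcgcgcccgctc
Dbp: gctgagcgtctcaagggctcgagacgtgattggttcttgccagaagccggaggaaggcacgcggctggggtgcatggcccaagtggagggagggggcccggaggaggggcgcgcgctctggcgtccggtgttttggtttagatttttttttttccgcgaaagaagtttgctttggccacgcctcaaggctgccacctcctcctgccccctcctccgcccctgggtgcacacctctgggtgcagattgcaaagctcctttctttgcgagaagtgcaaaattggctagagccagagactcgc
Hlf: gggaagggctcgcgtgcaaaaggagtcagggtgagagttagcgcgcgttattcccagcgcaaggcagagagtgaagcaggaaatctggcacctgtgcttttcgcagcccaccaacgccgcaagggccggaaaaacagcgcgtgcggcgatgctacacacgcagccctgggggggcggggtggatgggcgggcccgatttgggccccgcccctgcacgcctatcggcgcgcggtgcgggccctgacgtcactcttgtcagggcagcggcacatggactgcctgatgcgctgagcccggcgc
Tef, first start: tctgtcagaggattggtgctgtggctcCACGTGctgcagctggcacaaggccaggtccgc
Tef, second start: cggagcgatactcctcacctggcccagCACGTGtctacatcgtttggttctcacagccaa
Bhlhe41: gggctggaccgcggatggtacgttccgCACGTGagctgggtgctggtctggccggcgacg

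Total counts ranged from 13150140 to 16781708 per sample. All 8 colon epithelium markers passed the filter on low counts, and the pancreas markers summed to at most 0.07 CPM (read counts scaled to the effective size of each library), with Prss1 and Pnlip at 0 counts in every sample. On the first principal component 4 libraries lay together at one end (PBS samples 1, 3 and 5, and sample 3 of the bacterium group), and distal hindgut markers summed to between 6.63 and 791 CPM with PBS and between 55.4 and 505 CPM with the bacterium. The summed level of the 6 immune cell markers was 356 to 463 CPM with PBS and 476 to 611 CPM with the bacterium. Such a sum gives most weight to the most abundant markers. The mean log2 CPM over all 6 was 4.46 with PBS and 4.65 with the bacterium, and 2 of 6 passed the test described next. With the distal hindgut score as a covariate, added after seeing the data, the log2 fold change was 1.13 for Hlf (edgeR, adjusted p = 0.03). Dbp had 2.004 (edgeR, adjusted p = 0.0864) and Nfil3 -0.67 (edgeR, adjusted p = 0.0822), and neither passed. The part of the immune marker levels in the differences given here was not tested. In whole tissue, fewer cells of a type and less RNA per cell cannot be told apart.

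Of the 3 PAR bZIP activators, Hlf passed the test over all genes and Dbp and Tef did not. Hlf was 2.19-fold higher with the bacterium and was the 1 member of 8 called at an adjusted p of 0.05 (edgeR). This was the quasi-likelihood test, with p-values adjusted after Benjamini and Hochberg across 14070 genes. Of these, 0.249% were called, 0.156% as higher and 0.0924% as lower. Dbp had the largest fold difference of the 8 members, at 4.03-fold, and the groups did not overlap in Hlf or Dbp. The ratio for Tef was 1.69 with overlapping groups. Because the time of day of sampling is not given, a difference in that time between the groups cannot be told apart from the treatment.

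Dbp, a PAR bZIP gene with a wide daily swing in many mouse organs, had 2.90, 4.06 and 12.99 CPM as lowest, median and highest values in the PBS samples. With the bacterium the corresponding values were 16.0, 17.2 and 57.1 CPM. Every B. thetaiotaomicron sample lay above every PBS sample, and samples 7 and 3 of the bacterium group, at 57.1 and 42.4 CPM, stood well above the other 5, which lay between 16.0 and 22.2 CPM. The means were 6.62 ± 4.26 and 26.9 ± 16.3 CPM (SD, n = 7 each), and the log2 fold change was 2.01 ± 0.44 (SE). It did not pass over all genes in edgeR (adjusted p = 0.0752), and DESeq2 called it (adjusted p = 0.00152). The two-sided exact permutation p was 0.000583, the smallest that 7 against 7 samples can give, and 0.108 when adjusted over all genes. The unadjusted value follows from the groups not overlapping. Dbp shares 539 exonic bases with Sphk2 on the opposite strand, and whether the authors counted by strand is not given in the sources used here. Sphk2 itself had 65.7 ± 12.4 and 64.5 ± 7.33 CPM (SD, n = 7 each), with -0.03 ± 0.11 (SE) as its log2 fold change.

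Hlf, whose protein pairs with DBP and TEF on D-boxes, had a lowest value of 3.43, a median of 4.59 and a highest value of 7.21 CPM with PBS. With the bacterium these were 7.39, 11.7 and 17.1 CPM. The groups did not overlap, though B. thetaiotaomicron sample 2, the lowest of its group, was close to PBS sample 4, the highest of the other. The log2 fold change was 1.13 ± 0.21 (SE), with an adjusted p of 0.0378 in edgeR. The exact permutation p was 0.000583 unadjusted, the smallest possible, and 0.108 adjusted over all genes. The edgeR call was not stable when 1 library at a time was left out. These fits gave log2 fold changes of 1.002 to 1.225 and unadjusted p of 2.29e-05 to 0.000174 (edgeR). Hlf passed in 2 of 14 such fits, those without PBS sample 2 or PBS sample 4, with adjusted p between 0.034 and 0.108 over the 14. The adjusted p did not follow the unadjusted p. Without bacterium sample 2 they were 0.0565 and 2.29e-05, and without PBS sample 2 they were 0.034 and 0.000167 (edgeR). Without the 4 libraries at one end of the first component the value was 0.997 (adjusted p = 0.283).

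Tef, the third activator, had 19.2, 29.9 and 67.4 CPM as lowest, median and highest values with PBS. With the bacterium it had 39.8, 48.7 and 102 CPM. All 7 bacterium samples lay above the PBS median, but PBS samples 3 and 4, at 67.4 and 49.0 CPM, overlapped with them, and again samples 3 and 7 of the bacterium group were the highest at 95.7 and 102 CPM. The log2 fold change of 0.75 ± 0.31 (SE) did not pass over all genes (edgeR, adjusted p = 0.27, unadjusted p = 0.0298). Tef shares 193 exonic bases with an annotated antisense gene, Gm17597, which is not among the rows of the count table.

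**Figure D1:**
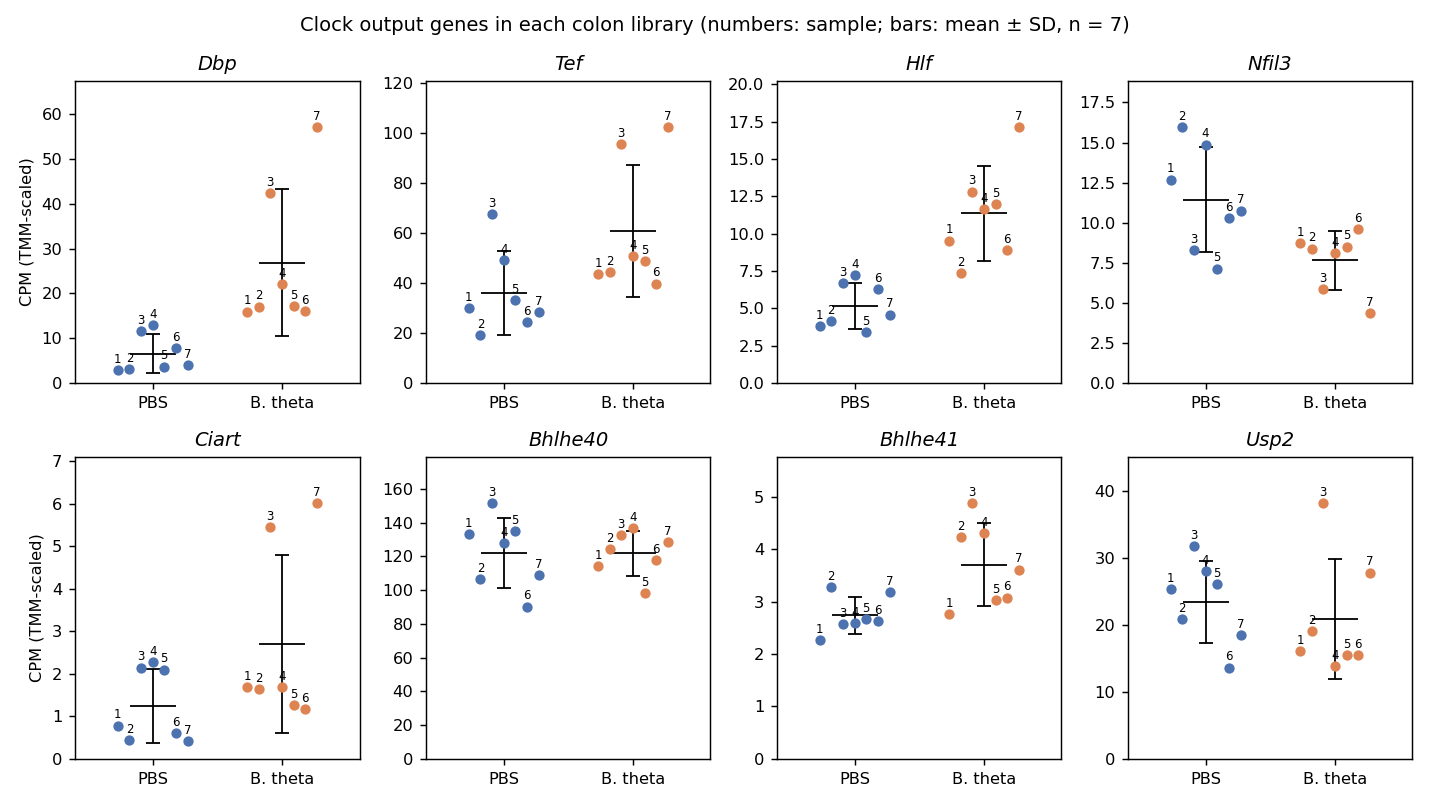
Each panel plots 1 clock output gene, with CPM on the vertical axis and the 7 PBS (blue) and 7 B. thetaiotaomicron (orange) samples as numbered points, beside the mean and SD of each group. Dbp and Hlf separate the groups, B. thetaiotaomicron samples 3 and 7 are the highest for Dbp, Tef, Hlf and Ciart, and Nfil3 runs the other way.

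Nfil3, the D-box repressor, did not pass the test, and its log2 fold change had the opposite sign to those of the activators. Its lowest, median and highest values were 7.14, 10.8 and 16.0 CPM with PBS and 4.35, 8.39 and 9.60 CPM with the bacterium. All 7 bacterium samples lay below the PBS median and 2 of them, samples 7 and 3, below the lowest PBS sample. PBS samples 3 and 5, at 8.29 and 7.14 CPM, lay within the range of the bacterium group. The log2 fold change was -0.58 ± 0.20 (SE) and did not pass over all genes (edgeR, adjusted p = 0.181, unadjusted p = 0.0105). It was the most negative of the 8 members in the main fit.

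Per length, the order of Dbp and Nfil3 within a library was reversed between the groups. Levels of different genes are compared here in FPKM, the authors' deposited values, in which the count is divided by gene length and by the total of the library. With PBS, Dbp had 2.22 ± 1.46 FPKM and Nfil3 5.64 ± 1.67 FPKM (SD, n = 7 each), and Dbp was the lower of the pair in all 7 samples. With the bacterium, Dbp had 8.97 ± 5.40 FPKM and Nfil3 3.79 ± 0.941 FPKM (SD, n = 7 each), and Dbp was the higher in all 7. The ratio of Dbp to Nfil3 was 0.133 to 0.954 with PBS (median 0.352) and 1.14 to 8.88 with the bacterium (median 1.38). The extremes were PBS sample 2 and B. thetaiotaomicron sample 7, while PBS sample 3 and B. thetaiotaomicron sample 6, at 0.954 and 1.14, lay close to equal levels on either side. A ratio within a library does not depend on how libraries are scaled, but it does depend on the gene lengths used. The deposited lengths were 2993 for Dbp and 2026 for Nfil3. In counts not divided by length, Dbp was above Nfil3 in PBS sample 3, at 196 and 139 reads. The ratio was described without a test. In FPKM, Usp2 had the same relation to Dbp: it was above Dbp in all 7 PBS samples and below it in all 7 bacterium samples. In counts, Usp2 was above Dbp also in bacterium samples 1 (257 and 254 reads) and 2 (266 and 238 reads).

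**Figure D2:**
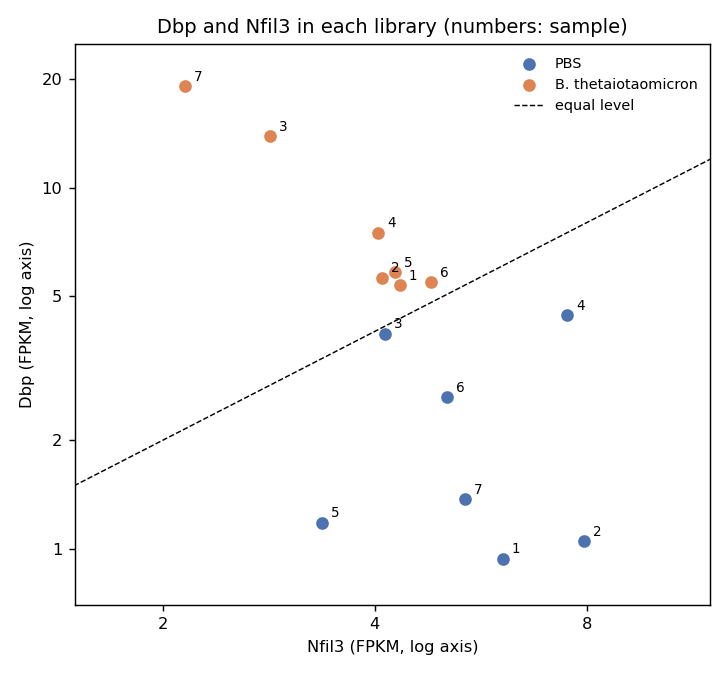
The deposited FPKM of Dbp (vertical) is plotted against that of Nfil3 (horizontal) on log axes for each numbered sample, with a dashed line of equal level. The 7 PBS samples lie below the line and the 7 B. thetaiotaomicron samples above it, with bacterium sample 7 (ratio 8.88) and PBS sample 2 (ratio 0.133) at the extremes.

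The order of all 8 members by mean FPKM was led in both groups by Bhlhe40, at 25.8 ± 4.35 FPKM in the PBS group and 25.9 ± 2.67 FPKM in the bacterium group (n = 7 each, SD), with no overlap with the next gene. With PBS the order below it was Nfil3, Usp2, Tef, Dbp, Hlf, Ciart and Bhlhe41. With the bacterium it was Dbp, Tef, Usp2, Nfil3, Hlf, Ciart and Bhlhe41. The place of Usp2 above Nfil3 there rests on 2 of 7 samples: Nfil3 was the higher in 5 of 7 in both groups, and its median with the bacterium was 4.09 FPKM beside 3.37 FPKM for Usp2. Apart from Bhlhe40, the ranges of each pair of neighbours in these orders overlapped in both groups. Bhlhe41 was lowest, at 0.407 ± 0.058 FPKM in the PBS group and 0.551 ± 0.112 FPKM in the bacterium group (n = 7 each, SD).

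None of the 3 repressor genes that act on E-boxes passed over all genes, and they did not share a direction in every fit. Ciart, the CHRONO gene, had 0.412, 0.783 and 2.27 CPM as lowest, median and highest values with PBS and 1.17, 1.68 and 6.02 CPM with the bacterium. These rest on few reads, between 6 and 36 per PBS sample. PBS samples 3, 4 and 5 were the high ones of their group, and bacterium samples 3 and 7, at 5.45 and 6.02 CPM, exceeded every PBS sample. The log2 fold change was 1.098 ± 0.512 (SE; edgeR, adjusted p = 0.327, unadjusted p = 0.0489).

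Bhlhe41, the DEC2 gene, had 2.27, 2.62 and 3.28 CPM as lowest, median and highest values with PBS and 2.76, 3.61 and 4.89 CPM with the bacterium. All 7 bacterium samples exceeded the PBS median and 4 of them exceeded every PBS sample. Its log2 fold change was 0.43 ± 0.15 (SE; edgeR, adjusted p = 0.191), and it was 0.27 (adjusted p = 0.621) without the 4 libraries at one end of the first component. It shares 1280 exonic bases with Gm43909 on the opposite strand, so its reads are uncertain. Bhlhe40, the DEC1 gene and the most highly expressed member per length, had 90.2, 128 and 152 CPM as lowest, median and highest values with PBS and 98.0, 124 and 137 CPM with the bacterium. The groups lay over each other, and the log2 fold change of -0.002 ± 0.104 (SE; edgeR, adjusted p = 0.995) changed sign with the scaling of libraries. Bhlhe40 shares 118 exonic bases with 0610040F04Rik on the opposite strand.

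Usp2, the deubiquitinase gene, had 13.7, 25.4 and 31.7 CPM as lowest, median and highest values with PBS and 13.9, 16.1 and 38.2 CPM with the bacterium. The bacterium group was split: 5 samples lay between 13.9 and 19.1 CPM, and samples 7 and 3 lay at 27.8 and 38.2 CPM. The log2 fold change was -0.17 ± 0.24 (SE; edgeR, adjusted p = 0.788). It was -0.38 without B. thetaiotaomicron sample 3 and -0.08 without PBS sample 3. Usp2 shares 200 exonic bases with Gm49380, a protein-coding gene on the opposite strand that is among the rows of the count table.

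Read against all genes tested, the members' counts were above the background. An unadjusted p under 0.05 was reached by 6 of 8 members, 5 higher and 1 lower, beside 15.2% of all genes, 7.98% higher and 7.26% lower. The groups did not overlap in 2 of 8, Dbp and Hlf, both higher, beside 0.54% of all genes, 0.206% higher and 0.334% lower. The median log2 fold change of the 8 was 0.59 and that of all genes was -0.01, and their median size without sign was 0.67 beside 0.11. All 8 passed the filter on low counts. Since the members were chosen with earlier results of these data known, these counts describe them and do not test them as a group. Several members also moved together within groups, as given below, so they are not independent. Their median within-group SD of log2 CPM was 0.443, beside 0.197 over all genes.

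Core clock genes had log2 fold changes between those of Arntl, the lowest, and Nr1d1, the highest. In edgeR 0 of 17 tested, of 18 listed, passed over all genes, beside 0.249% of all genes. DESeq2 called 2 higher and 1 lower (Arntl, Nr1d2 and Timeless), and limma-voom 0. Over all genes DESeq2 called 274 higher and 161 lower of 17880, and limma-voom 26 higher and 18 lower of 14070. In edgeR 3 of the 17 reached an unadjusted p under 0.05 with higher values and 5 with lower values. Over all genes these shares were 7.98% and 7.26%. None of the 17 separated the groups, beside 0.54% of all genes. Nr1d1, which encodes REV-ERB alpha, had 51.2 ± 20.6 CPM with PBS and 92.2 ± 40.7 CPM with the bacterium (n = 7 each, SD), and its log2 fold change was 0.85 ± 0.30 (SE; edgeR, adjusted p = 0.2). Arntl, which encodes BMAL1, had 68.8 ± 16.8 and 45.8 ± 8.88 CPM (n = 7 each, SD), and its log2 fold change was -0.59 ± 0.17 (SE; edgeR, adjusted p = 0.131). The period genes Per3 and Per2, repressors of the loop, had log2 fold changes of 0.51 ± 0.29 and -0.14 ± 0.21 (SE), with adjusted p of 0.431 and 0.794 in edgeR.

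Of 10 genes with daily rhythms in many mouse organs outside the loop, 0 passed over all genes in edgeR, beside 0.249% of all genes. In edgeR 1 had an unadjusted p under 0.05 with higher values and 3 with lower. Over all genes these shares were 7.98% and 7.26%. DESeq2 called 1 higher and 2 lower (Fkbp5, Lonrf3 and Tspan4), and limma-voom 1, lower (Fkbp5). Fkbp5, a chaperone gene also induced by glucocorticoids, had the smallest p of them, with 302 ± 49.1 CPM in the PBS samples and 172 ± 54.8 CPM in the bacterium samples (n = 7 each, SD) and an adjusted p of 0.0752 in edgeR. The log2 fold changes were -0.73 ± 0.20 (SE) for Lonrf3, a RING finger gene, and 0.43 ± 0.13 (SE) for Tspan4, a tetraspanin gene.

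Of 10 genes listed as targets of the PAR bZIP proteins in other settings, 6 were tested in edgeR. Of these, 0 passed over all genes, beside 0.249% of all genes, and 2 had an unadjusted p under 0.05, both lower. Over all genes 7.26% had such a p with lower values. DESeq2, which tested 7, called 0 higher and 1 lower (Pdxk), and limma-voom 0. Pdxk, the pyridoxal kinase gene known as their target in mouse brain, showed a log2 fold change of -0.58 ± 0.18 (SE; edgeR, adjusted p = 0.153). Ces2a, a carboxylesterase gene, had -0.65 ± 0.27 (SE; edgeR, adjusted p = 0.278). Alas1, the first enzyme of haem synthesis, had 0.22 ± 0.14 (SE; edgeR, adjusted p = 0.486).

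**Figure D3:**
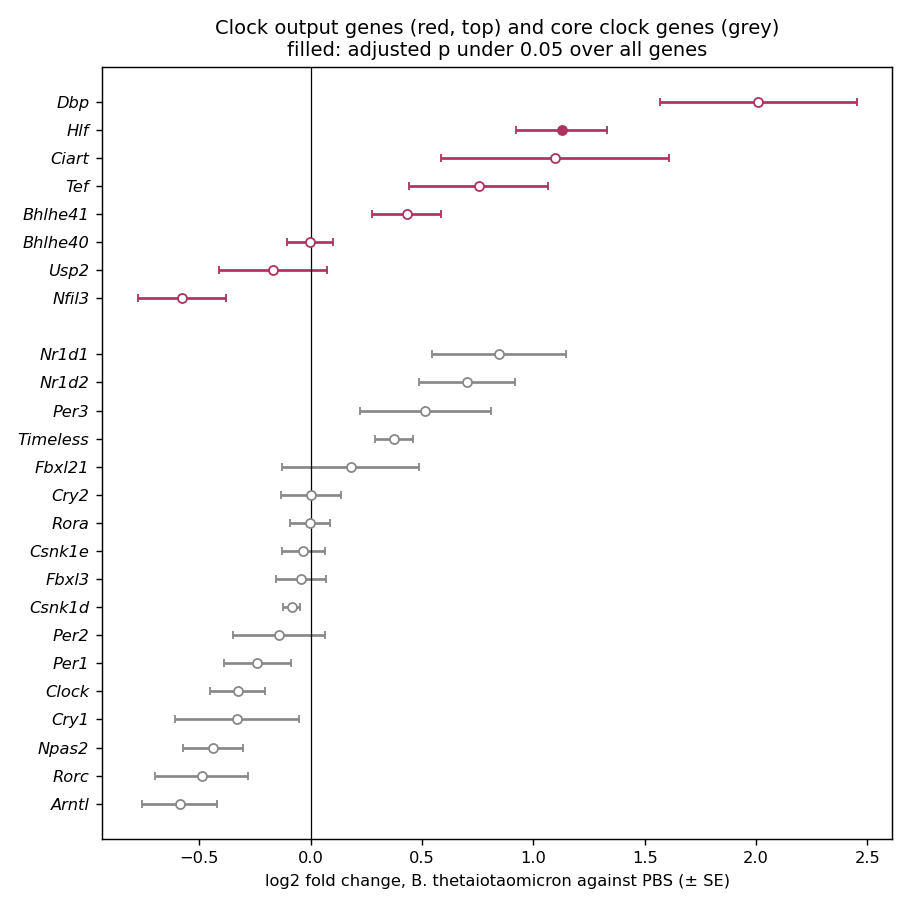
Points give the log2 fold change of B. thetaiotaomicron against PBS and bars its SE from edgeR, for the 8 clock output genes (red) and the 17 tested core clock genes (grey). Hlf alone is filled, for an adjusted p under 0.05, and Dbp lies farthest right at 2.01.

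Several members varied widely among samples of one group. The within-group SD of log2 CPM was 0.82 for Dbp, 0.95 for Ciart and 0.59 for Tef, beside a median of 0.20 over all genes tested. Set among the 1000 genes nearest in mean level, the SD of Dbp was larger than that of 97.5% of them, that of Tef than 96.7% and that of Ciart than 93.3%. Hlf, at 0.40, exceeded 82.2% and Nfil3, at 0.41, exceeded 86.5%. Bhlhe40 had the smallest SD of the 8, at 0.21, which exceeded 54.8% of all genes and 80.4% of those nearest in level. Usp2, at 0.48, exceeded 93.1% of the genes nearest in level, and Bhlhe41, at 0.25, exceeded 12.4%.

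**Figure D4:**
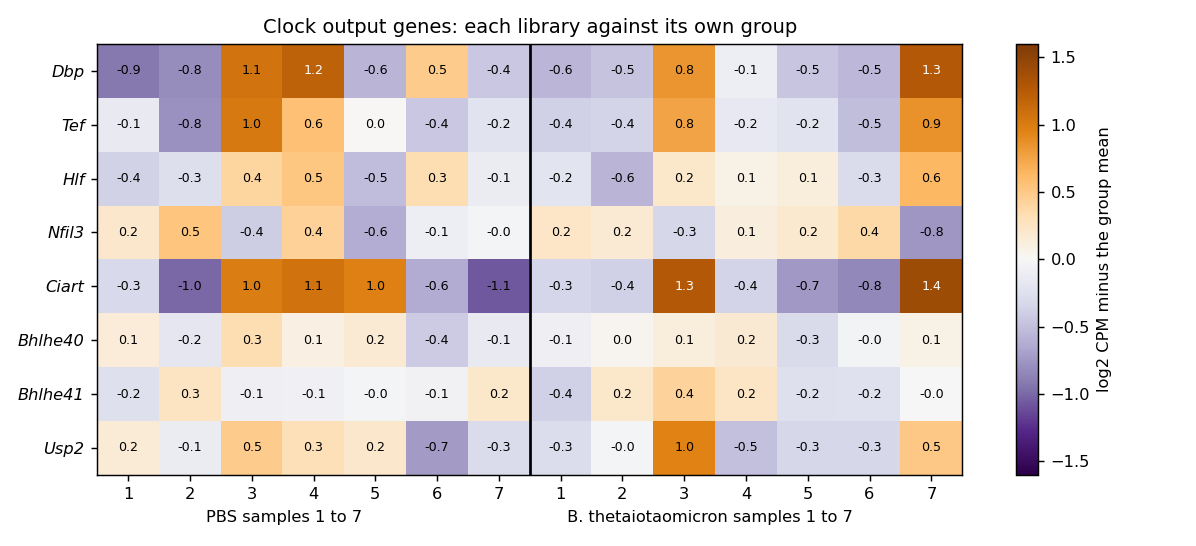
Colour and number give the log2 CPM of each clock output gene minus the mean of its own group, for PBS samples 1 to 7 (left) and B. thetaiotaomicron samples 1 to 7 (right). PBS samples 3 and 4 and bacterium samples 3 and 7 are above their group means for Dbp, Tef, Hlf, Ciart and Usp2.

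Whether members moved together from sample to sample within a group was tested on the deviations from group means, which the difference between groups does not set. Over 28 pairs, 12 passed an adjusted p of 0.05 (Benjamini-Hochberg over the 28) by Pearson's r with permutation within groups, 10 positive and 2 negative. How often pairs of other genes pass was not computed, so the 12 are not shown to be particular to these genes. Dbp and Hlf were correlated at r = 0.89 (adjusted permutation p = 0.00084) and Spearman's rho = 0.89 (adjusted permutation p = 0.0076) over 14 samples, with unadjusted permutation p of 3e-05 and 0.00027. The value was 0.82 without PBS sample 4 and B. thetaiotaomicron sample 7, the samples farthest from the median of Dbp, and 0.86 without bacterium samples 3 and 7. It was the 1 pair of 28 that passed in all of these settings.

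Tef and Ciart had r = 0.90 (unadjusted permutation p = 0.00021, adjusted 0.0029) and rho = 0.85 (unadjusted permutation p = 0.00061, adjusted 0.0085). Their r was 0.88 without PBS sample 3 and bacterium sample 7 and 0.81 without bacterium samples 3 and 7, where it did not pass (adjusted permutation p = 0.07). Tef and Usp2 had r = 0.81 (permutation p = 0.0013, adjusted 0.0086) and rho = 0.76 (permutation p = 0.0029, adjusted 0.02), and Ciart and Usp2 had r = 0.84 (permutation p = 0.0009, adjusted 0.0084) and rho = 0.79 (permutation p = 0.0015, adjusted 0.014). Neither passed without the 2 samples farthest from the median, at r = 0.77 and 0.72, or without bacterium samples 3 and 7, at 0.67 and 0.72.

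Dbp and Nfil3 had opposite signs without passing, at r = -0.48 (permutation p = 0.097, adjusted 0.17) and rho = -0.46 (permutation p = 0.13, adjusted 0.25). The value was -0.63 without PBS sample 4 and bacterium sample 7. Among the 7 bacterium samples alone r was -0.98 and among the 7 PBS samples -0.09, and without bacterium samples 3 and 7 the value over the remaining samples was -0.11, so the relation rests on those samples. Bhlhe41 took part in none of the 12 pairs.

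**Figure D5:**
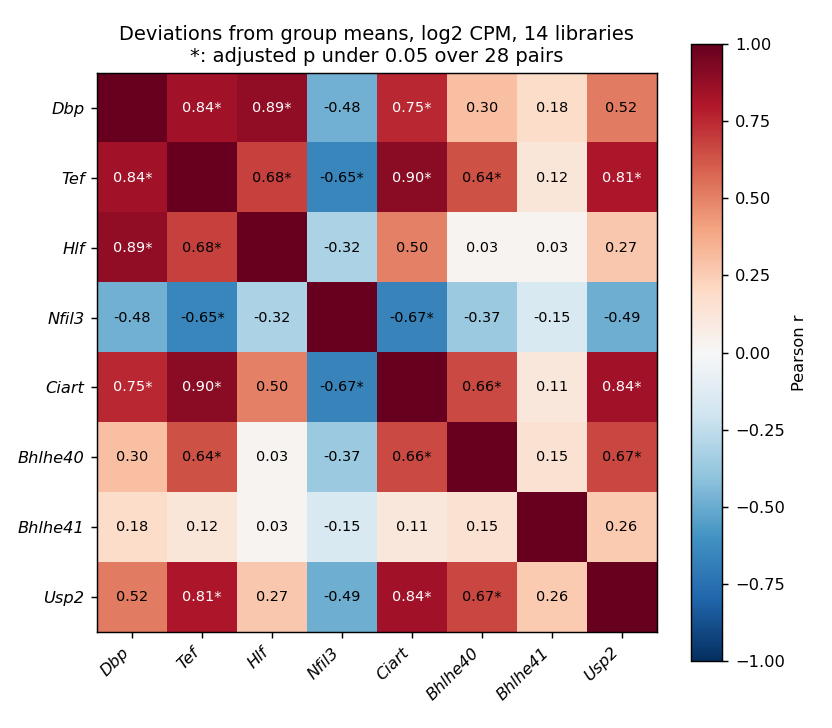
Each cell gives Pearson's r between 2 clock output genes over 14 samples, computed on log2 CPM after the group means were removed, with an asterisk for an adjusted permutation p under 0.05 over 28 pairs. Dbp, Tef, Hlf, Ciart and Usp2 have positive values with each other, from 0.27 to 0.90. Nfil3 has negative values with all 7 others, with an asterisk only for Tef and Ciart. Without bacterium samples 3 and 7, Nfil3 had 0.09 with Hlf and 0.06 with Bhlhe41 and stayed negative with the others. Hlf and Usp2 then had -0.12.

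With the 17 tested core clock genes, the deviations of Dbp, Hlf and Nfil3 gave 51 relations, of which 9 passed an adjusted permutation p of 0.05 by Pearson's r and 2 also by Spearman's rho. The share that passes with genes outside the clock was not computed here either. Dbp and Nr1d2, the gene for REV-ERB beta, had r = 0.81 (permutation p = 0.0019, adjusted 0.027) and rho = 0.82 (permutation p = 0.002, adjusted 0.05), and r = 0.71 without the 2 samples farthest from the median. Dbp and Arntl had r = -0.70 (permutation p = 0.0036, adjusted 0.036) and rho = -0.62 (permutation p = 0.015, adjusted 0.096), and r = -0.55 without those samples. Nfil3 and Per2 had r = -0.82 (permutation p = 0.00057, adjusted 0.015) and rho = -0.80 (permutation p = 0.0015, adjusted 0.05), and r = -0.70 without PBS sample 5 and bacterium sample 7. Nfil3 and Per3 had r = -0.84 (permutation p = 0.00046, adjusted 0.015) and rho = -0.71 (permutation p = 0.0067, adjusted 0.086), and r = -0.83 without the same samples.

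Outside the members and the core clock list, the genes most like Dbp in these deviations, among 11428 genes with a mean of at least 5 CPM, included Eif2a and Tsg101, with r of 0.80 and 0.78 over 14 samples. Those most like Hlf were Cdh19, Camk1 and Slc48a1, with r of 0.79, 0.79 and 0.77. Those most like Nfil3 were Pcgf6, Dapk1 and Rock2, with r of 0.88, 0.88 and 0.87. As the highest of many genes they are given as a description without a test.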

How the data were processed

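The deposited table gives the authors' counts of reads for each gene and their FPKM, per the file headers. The deposited FPKM was recomputed from count, length and library total (ratio 0.999995 to 0.999998). Libraries were made with a SMARTER mRNA kit per the labels' protocols. The submitters' processing notes name GRCm38 and mm10. Aligner, counter and strand setting: not given in the sources used here. The table's start positions of the 8 members differ from GENCODE M21 on GRCm38, so the table's coordinates were not used.

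Groups came from the titles, and sample numbers were those of the libraries. filterByExpr kept genes (minimum count 10, minimum total 15), and counts were scaled by TMM and tested with edgeR 4.0.16 (quasi-likelihood, robust, group only) in R 4.3.3. SE is the log2 fold change over the square root of F. Log2 CPM used a prior count of 2. Exact tests used 3432 arrangements and correlations 100000 within-group permutations. The fit was first tried on simulated data with known changes. No pair of libraries of one group agreed within sampling noise (lowest chi-square 9.9 per degree of freedom, 42 pairs). The titles number all but the first sample of each group as biological replicates. The labels do not say whether each sample is 1 animal, so p-values measure only the variation among these samples. All samples carry 1 batch label, so nothing could be recomputed within batches.

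The members, lists and rules were chosen with earlier results of these data known. Named were all 8 members, Arntl, Nr1d1, Per2, Per3 and any core clock gene past the threshold, the 3 genes of smallest p in each other list, and the 3 genes most like each of Dbp, Hlf and Nfil3, of which 1 is not reported here. Nr1d2, Timeless and Sphk2 were named after their values were seen. Alternatives were DESeq2 1.42.0, limma-voom 3.58.1, other scalings, filters and thresholds, an exact permutation test for all genes, a smooth muscle covariate, the sample number as a block, and fits without 1 sample. Chosen after seeing the data were a distal hindgut covariate, a fit without 4 libraries and correlations without bacterium samples 3 and 7.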

Additional observations from a re-analysis of the deposited data

How the results depend on the processing

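Dbp, Tef, Hlf, Ciart, Bhlhe41, Nfil3 and Usp2 kept their direction in every alternative in which they were tested, 27 for each but Ciart and Bhlhe41, which the filter at 50 counts removed (26 each). Bhlhe40, near 0 throughout, changed sign: its log2 fold change was 0.001 with DESeq2's size factors, 0.006 by library size alone, 0.000 with the filter at 50 counts, 0.002 in DESeq2, 0.009 in limma-voom, in the exact permutation test and with the replicate block, 0.029 with the distal hindgut covariate and 0.150 without the 4 libraries at one end of the first component, and -0.063 to 0.060 when 1 sample was left out. Dbp was called in DESeq2 (2.02). Hlf was not called in the exact permutation test (1.12), with the replicate block (1.13, adjusted p = 0.0526 in edgeR) or without the 4 libraries (0.997), and ranged from 1.002 to 1.225 without 1 sample. The cause was not tested.

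Members called numbered 2 in DESeq2 and at an adjusted p of 0.1, and 0 in the exact permutation test, with the replicate block, without the 4 libraries and at an adjusted p of 0.01, and 0 to 1 without 1 sample. Over all genes the count of 35 became 435 in DESeq2, 78 with the smooth muscle covariate, 15 with the replicate block, 198 at an adjusted p of 0.1, 0 at 0.01, 0 in the exact permutation test (2107 at an unadjusted p under 0.05) and 0 in edgeR without the 4 libraries (1481 at an unadjusted p under 0.05), and 0 to 121 without 1 sample. Among the fits without 1 sample it was within 1.5 times of 35 only without PBS sample 4 (27) or bacterium sample 5 (33), and those with 0 had 1684 to 2282 genes at an unadjusted p under 0.05. The exact permutation test could reach no unadjusted p below 0.000583. Sample numbers did not pair the groups: 4 of 7 same-number pairs had a correlation of deviations over 0.1, from -0.26 to 0.60, and 2 of 7 PBS samples correlated best with their own number. Of the 12 pairs of members past the threshold, all kept their sign, and the count was 5 by Spearman's rho, 2 without the 2 samples farthest from the median and 1 without bacterium samples 3 and 7. With few reads, Ciart is limited by depth.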
